A study of Mus musculus with 2 samples.

Results

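The 6 microRNA (miRNA) genes Mir770, Mir673, Mir493, Mir341, Mir370 and Mir1247 lie in the Dlk1-Dio3 imprinted domain of mouse chromosome 12, outside its large Rtl1-antisense and Mir379 to Mir410 miRNA clusters. They were taken by gene identifier, in a choice made with earlier results of these data known, and are 6 of the 2202 miRNA genes in the deposited count tables. The data are 2 libraries of short RNA, called replicates 1 and 2, from hippocampus labelled as female B6CASTF1/J at an age of 25 days, the first-generation hybrid of C57BL/6J and CAST/EiJ. No treatment, genotype or second tissue was compared, so all results are levels in these libraries and differences between replicates of a single group. The labels give separate tissue samples with the same donor identifier, and they speak of a hippocampal layer without naming it. They do not say whether the samples came from separate animals, so each SD measures only the spread between these samples.

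A miRNA gene encodes a hairpin that is cut to a duplex, and either strand (the 5p or the 3p arm) can load into an Argonaute protein and repress messenger RNAs that pair with its seed, bases 2 to 8. The Dlk1-Dio3 domain is imprinted: its noncoding RNAs, including Meg3, Rian and the miRNA clusters, are transcribed from the maternally inherited chromosome, and protein-coding genes such as Dlk1 and Rtl1 from the paternal one. Meg3 is a long noncoding RNA abundant in brain, and Rian hosts miRNAs and small nucleolar RNAs downstream of it. Dio3, at the far end, encodes the deiodinase that inactivates thyroid hormones, and Dio3os is transcribed from the opposite strand beside it. The counts do not separate the parental alleles or the arms of a hairpin.

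In mm10, Mir770 (ENSMUSG00000076451.1) lies on the plus strand of chromosome 12 from 109563692 to 109563785, within Meg3, in an exon of 1 Meg3 transcript and in an intron of 3 others. Mir673 (ENSMUSG00000076316.1; 109571990 to 109572080) starts 263 bases past the annotated end of Meg3 on the same strand, and no gene overlaps it in GENCODE M21. Mir493 (ENSMUSG00000077025.2; 109580233 to 109580315) lies 8506 bases past that end and 5473 bases before Mir337, the first hairpin of the Rtl1-antisense segment. Mir341 (ENSMUSG00000070101.1; 109611500 to 109611595) and Mir370 (ENSMUSG00000065433.1; 109618258 to 109618336) each lie in an intron of 2 Rian transcripts. These 5 hairpins span 54.6 kb. Mir1247 (ENSMUSG00000080356.1; 110278048 to 110278129) stands apart, 660 kb (659711 bases) beyond Mir370 on the minus strand. It lies in an exon of 1 Dio3os transcript, overlaps an exon of another in part, and ends 938 bases from the start of Dio3.

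All 6 symbols were found in the RefSeq table of mouse hairpins (GRCm38.p6), each with 2 mature products and each hairpin identical to its GENCODE M21 transcript. The 12 mature sequences are given 5′ to 3′ with the seed in capitals, because the seed decides which messages a product can pair with.
mmu-miR-770-5p: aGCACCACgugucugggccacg
mmu-miR-770-3p: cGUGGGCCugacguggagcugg
mmu-miR-673-5p: cUCACAGCucugguccuuggag
mmu-miR-673-3p: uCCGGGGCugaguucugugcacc
mmu-miR-493-5p: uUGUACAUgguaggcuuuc
mmu-miR-493-3p: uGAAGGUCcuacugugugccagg
mmu-miR-341-5p: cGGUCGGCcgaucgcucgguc
mmu-miR-341-3p: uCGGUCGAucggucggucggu
mmu-miR-370-5p: cAGGUCACgucucugcaguu
mmu-miR-370-3p: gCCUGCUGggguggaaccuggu
mmu-miR-1247-5p: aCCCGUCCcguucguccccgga
mmu-miR-1247-3p: cGGGAACGucgagacuggagc

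The 12 seeds are all different, so the 6 genes are neighbours and not a sequence family. Only 2 of the seeds occur in another mature miRNA of the RefSeq table. The seed of miR-673-5p is shared with miR-6985-3p, whose gene Mir6985 on chromosome 19 was near the floor, with 16 counts in replicate 1 and 17 counts in replicate 2. The seed of miR-370-5p is shared with miR-1193-3p, whose gene Mir1193 lies in the Mir379 to Mir410 segment of the same domain and had 110 CPM in replicate 1 and 76.2 CPM in replicate 2. CPM are counts per 1000000 counts in the gene rows of a library. None of the 12 mature sequences occurs in another miRNA hairpin of the annotation, and the longest stretch that a member hairpin shares with a miRNA gene elsewhere is 12 to 14 bases. The values below are thus not split among annotated miRNA copies; matches elsewhere in the genome were not searched here.

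Hairpins of 3 genes are shown in full, Mir770 as the most abundant, Mir341 for its repeat and Mir1247 as the gene that differed most between the libraries, with both mature arms in capitals.
Mir770: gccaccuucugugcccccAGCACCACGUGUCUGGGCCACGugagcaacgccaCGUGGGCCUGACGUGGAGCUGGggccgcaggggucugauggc
Mir341: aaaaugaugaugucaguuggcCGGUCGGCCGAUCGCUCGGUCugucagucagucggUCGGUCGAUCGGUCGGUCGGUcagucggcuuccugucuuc
Mir1247: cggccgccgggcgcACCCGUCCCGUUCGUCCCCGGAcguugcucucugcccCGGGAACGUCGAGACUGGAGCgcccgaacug

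The Mir341 hairpin is built of a short repeat: the 4 letters GGUC occur 7 times in it on the transcribed strand, as often as in only 7 of the 2202 hairpins (0.318%), whereas 22.6% of hairpins hold them at least once. Its longest stretch found again within the same hairpin is 11 bases, against 5 to 8 bases in the other members. The Mir1247 and Mir770 hairpins are rich in G and C, at 74.4% and 70.2%, values that 2.13% and 2.997% of all hairpins reach. The members' median was 60.5% GC (range 53.0 to 74.4), against 55.1% in the Rtl1-antisense segment, 43.6% in the Mir379 to Mir410 segment and 50.8% over all hairpins. The folding energy predicted by RNAfold ranged from -0.62 kcal/mol per base in Mir770 to -0.44 in Mir341, with a median of -0.49, against -0.43 over the 579 genes compared below.

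Replicate 1 had 5481053 counts in gene rows and replicate 2 had 4266963, from 15474606 and 13677083 reads. Reads that match several places, which enter no gene count, made up 41.9% and 46.4% of all reads. Counting error is therefore small for the abundant members, and 1 count is worth 0.182 CPM in replicate 1 and 0.234 CPM in replicate 2. All intervals given are 95% intervals from the counts, exact unless stated otherwise. They cover counting error only, and do not cover differences between tissue samples. Most neuronal and striated muscle markers and some oligodendrocyte ones are numbered copies of the same miRNA, such as Mir124a-1 and Mir124a-2. Reads matching several copies enter no gene count, so the values of these lists cover only reads placed at a single gene. Neuronal miRNA markers were present in such reads, as the label implies, with 12 of 15 at 2 CPM or more in each library and 4.65% and 5.03% of the counts. Gene by gene they still differed: of the 14 with at least 10 counts in sum, 6 were at least 2-fold higher and 6 at least 2-fold lower in replicate 1, with a median log2 ratio (replicate 1 over replicate 2) of -0.59. Striated muscle markers were near 0 in such reads, with 26.8 CPM in sum in replicate 1 (4 of 5 genes at 0) and 38.2 CPM in replicate 2 (3 of 5 at 0). Because the Mir1a and Mir133a genes stand in that list as copies, these zeros are no measure of absence. The libraries also stood apart in markers of other cells. The 3 oligodendrocyte genes summed to 6503 CPM in replicate 1 and 939 CPM in replicate 2, and the 5 epithelial genes to 72.4 and 5824 CPM, with no gene of either list at 0.

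Together the 6 genes held 1.65% of the counts in replicate 1 (90218 counts, 95% Clopper-Pearson interval 1.64 to 1.66) and 2.12% in replicate 2 (90351 counts, 2.10 to 2.13). Mir770 alone supplied 74.7% of these counts in each library. The summed level was 18817 ± 3334 CPM (SD, n = 2). In both libraries 5 members reached 2 CPM, as did 433 of all 2202 miRNA genes. Mir1247 missed it in replicate 2, at 1.64 CPM with an interval of 0.660 to 3.38 that includes 2 CPM. A read covers a whole mature product, so CPM were not divided by hairpin length. In bulk tissue, fewer cells of a type and less RNA per cell cannot be told apart.

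**Figure D1:**
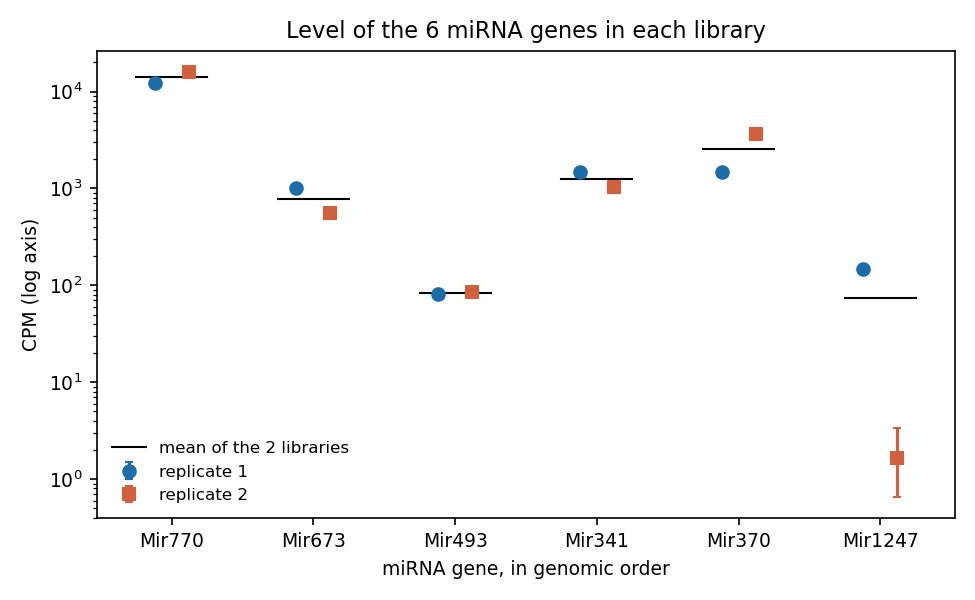
CPM (log axis) of the 6 miRNA genes in genomic order, in replicate 1 (circles) and replicate 2 (squares), with exact 95% Poisson intervals where they exceed the symbol and a line at the mean. Mir770 is highest in both libraries, Mir493 lies at nearly the same level in both, and Mir1247 is at 148 CPM in replicate 1 and 1.64 CPM in replicate 2.

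Mir770, the Meg3-hosted hairpin, was the most abundant member. It had 67377 counts (12293 CPM, interval 12200 to 12386) in replicate 1 and 67505 counts (15820 CPM, 15701 to 15940) in replicate 2, a mean of 14056 ± 2494 CPM (SD, n = 2). This placed it 18th and 16th among all 2202 miRNA genes, in ranks that count only reads matching a single place. Meg3 holds a further annotated hairpin, Mir1906-1, which had 0 counts in both libraries and was chosen for mention after its values were seen. An identical copy, Mir1906-2, lies on the X chromosome, and reads that match both enter no gene count, so this 0 is no measure of miR-1906.

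Mir673 and Mir493 follow Meg3 at increasing distance and were lower. Mir673, a miRNA described in rodents, had 5481 counts (999.99 CPM) in replicate 1 and 2407 counts (564 CPM) in replicate 2, a mean of 782 ± 308 CPM (SD, n = 2). Mir493, reported to restrain metastasis of human colon cancer cells, had 442 counts (80.6 CPM, interval 73.3 to 88.5) in replicate 1 and 367 counts (86.0 CPM, 77.4 to 95.3) in replicate 2. Its mean was 83.3 ± 3.80 CPM (SD, n = 2), and it was the only member whose intervals overlapped between the libraries. Within a library, Mir770 had 12.3 times the counts of Mir673 in replicate 1 and 28.0 times in replicate 2, and Mir673 had 12.4 times and 6.56 times those of Mir493.

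Mir341 and Mir370, the hairpins in Rian introns, were of intermediate level. Mir341, a rodent miRNA, had 8067 counts (1472 CPM, interval 1440 to 1504) in replicate 1 and 4383 counts (1027 CPM, 997 to 1058) in replicate 2, with a mean of 1250 ± 314 CPM (SD, n = 2). Mir370, reported in human liver cells to act on the fatty acid oxidation gene CPT1A, had 8041 counts (1467 CPM, 1435 to 1499) in replicate 1 and 15682 counts (3675 CPM, 3618 to 3733) in replicate 2, with a mean of 2571 ± 1561 CPM (SD, n = 2). The pair was level in replicate 1 and split in replicate 2; both hairpins lie in Rian introns on the same strand. Mir370 counts divided by Mir341 counts were 0.997 in replicate 1 and 3.58 in replicate 2. This quotient does not depend on library scaling, and it was 3.59 times larger in replicate 2 (95% normal-approximation interval 3.43 to 3.76, counting error only).

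Both Rian hairpins have an annotated miRNA neighbour within 1000 bases. Mir1188 starts 226 bases past Mir341 and had 407 counts (74.3 CPM) in replicate 1 and 462 counts (108 CPM) in replicate 2. Mir341 thus had 19.8 times the counts of Mir1188 in replicate 1 and 9.49 times in replicate 2. Gm23912, which ends 57 bases before Mir370 and shares the 14-base stretch with Mir341, had 0 counts in both, which allows up to 0.547 and 0.703 CPM (3 counts a library).

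Mir1247, beside Dio3 and reported in human cartilage cells to interact with SOX9, was the lowest member by mean and the most variable. It had 810 counts (148 CPM, interval 138 to 158) in replicate 1 and 7 counts (1.64 CPM, 0.660 to 3.38) in replicate 2. The mean was 74.7 ± 103 CPM (SD, n = 2), so the SD exceeded the mean and the mean describes neither library. In rank it stood 185th of all miRNA genes in replicate 1 and 512th in replicate 2. No count fell on the opposite strand at Mir1247 or at any other member in either library, and the counts made without strand were identical for all 6.

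By mean CPM the order was Mir770, Mir370, Mir341, Mir673, Mir493 and Mir1247. The ranges over the 2 libraries did not overlap between Mir770 and Mir370, whose means differed 5.47-fold, between Mir341 and Mir673 (1.60-fold), or between Mir673 and Mir493 (9.39-fold). They overlapped between Mir370 and Mir341 (2.06-fold) and between Mir493 and Mir1247 (1.12-fold), so the order within these pairs is not settled. Mir341 and Mir673 were close to overlapping, with the lowest Mir341 value at 1027 CPM and the highest Mir673 value at 999.99 CPM.

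The members did not move as a block between the libraries. With CPM from library totals, 3 were higher in replicate 1 (Mir673, Mir341 and Mir1247) and 3 lower (Mir770, Mir493 and Mir370). A ratio of at least 2 in either direction was reached by 2 of the 6, Mir1247 and Mir370. The same was reached by 50.4% of the 579 miRNA genes with at least 10 counts summed over the libraries, so the members' share is below the background and is no result about them. At least 2-fold higher in replicate 1 were 20.0% of all genes and 1 member, and at least 2-fold lower 30.4% and 1 member. The median log2 ratio of CPM + 1, replicate 1 over replicate 2, was 0.21 for the members and -0.24 for all genes compared. With 1 library on each side, these ratios have no replicate check and compare tissue samples, not conditions.

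Mir1247 had the largest ratio. It was 90.1 times higher in replicate 1 than in replicate 2 (exact 95% interval 43.5 to 225). Among all 579 genes, 10 others had a ratio as high, each of them with 0 counts in replicate 2 and at most 8.03 CPM in replicate 1. None of the 184 other genes with a CPM in replicate 1 as high as that of Mir1247 had a ratio as high. Mir1247 had 1.83 times the counts of Mir493 in replicate 1 and 0.0191 times in replicate 2. Because Mir493 differed little between the libraries with totals, this quotient largely repeats the ratio of Mir1247. Under the other scalings, the ratio of Mir1247 was 116 with TMM, 116 with DESeq2 size factors and 102 per mapped read.

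Mir370 went the other way. Its ratio of replicate 1 over replicate 2 was 0.399 (exact 95% interval 0.389 to 0.410), which is 2.51-fold lower in replicate 1. Mir673 had a ratio of 1.77 (1.69 to 1.86) and Mir341 one of 1.43 (1.38 to 1.49), while Mir770 had 0.777 (0.769 to 0.785) and Mir493 0.938 (0.815 to 1.08). All of these except Mir493 lay beyond counting error.

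**Figure D2:**
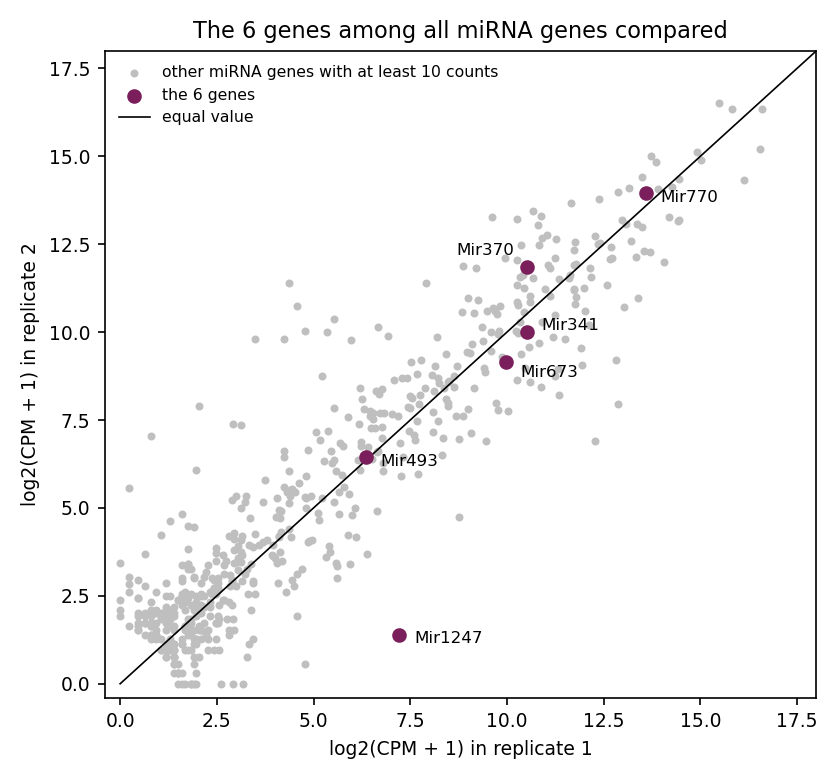
Level of each miRNA gene as log2(CPM + 1) in replicate 1 (horizontal) and replicate 2 (vertical), for the 6 genes (dark points, named) and all other genes with at least 10 counts summed over the libraries (grey). Mir770, Mir673, Mir493, Mir341 and Mir370 lie within the grey cloud near the line of equal value, and Mir1247 lies far below it.

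Scaling changes which moderate differences pass 2-fold. Over the 433 genes at 2 CPM or more in each library, edgeR TMM factors in place of library totals raised the median log2 ratio, replicate 1 over replicate 2, by 0.36, as did DESeq2 size factors. With TMM the ratio of Mir770 became 0.997 and that of Mir493 1.20, so neither has a settled direction. Mir370 became 0.512, just short of 2-fold, and Mir673 2.27, just past it. The count past 2-fold stayed at 2 of 6, but with Mir673 in place of Mir370 beside Mir1247, against 48.5% of all genes, and DESeq2 size factors gave the same 2 members against 49.2%. Per mapped read, 3 members passed (Mir673, Mir370 and Mir1247), against 48.2% of all genes, and the same 3 passed a limit of 1.5-fold with library totals, against 69.3%. Of all genes past 2-fold, 39.7% were higher in replicate 1 with totals and 54.1% with TMM. The directions of Mir673, Mir341, Mir370 and Mir1247 were the same under every scaling used here, which could not have come out otherwise. Each scaling used in place of totals raised all ratios, so those of Mir673, Mir341 and Mir1247, above 1 with totals, could not reverse. The shift was too small to reverse Mir370.

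**Figure D3:**
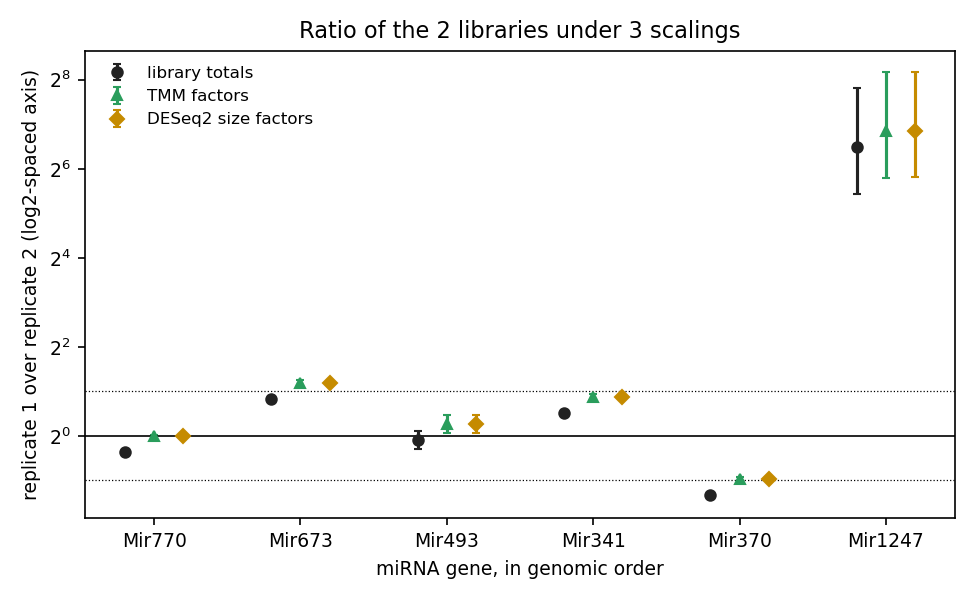
Ratio of replicate 1 over replicate 2 for each of the 6 genes on a log2-spaced axis, with library totals (circles), TMM factors (triangles) and DESeq2 size factors (diamonds) and exact 95% intervals; dotted lines mark 2-fold. Mir770 moves from below 1 with totals to 0.997 with TMM, Mir493 crosses 1, Mir673 and Mir370 move across or up to the dotted lines, and Mir1247 stays far above 2-fold.

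Values that moved with the libraries stand beside these ratios. Over all 579 genes compared, 20.0% were at least 2-fold higher and 30.4% at least 2-fold lower in replicate 1. Of the 3 oligodendrocyte markers, 2 were at least 2-fold higher in replicate 1, as Mir1247 was, and 1 at least 2-fold lower. Of the 3 erythroid markers, 2 were at least 2-fold higher and 0 at least 2-fold lower. All 5 epithelial markers were at least 2-fold lower in replicate 1, as Mir370 was with library totals. So were the liver marker, 1 of 5 choroid plexus and ciliated markers and 2 of 4 microglial and immune ones, of which 1 was at least 2-fold higher. All 3 endothelial and mural markers were higher in replicate 1, with 0 of them past 2-fold. Sums of the oligodendrocyte and epithelial lists are given above, and whether a shared direction links a member to a list was not tested. Across the 579 genes, the Spearman rho between hairpin GC and the log2 ratio (replicate 1 over replicate 2) was 0.22, a correlation across genes that share the same 2 libraries. Of the 26 genes with at least 70% GC, which include Mir1247 and Mir770, 9 were at least 2-fold higher and 6 at least 2-fold lower in replicate 1. These stand against the 20.0% and 30.4% over all genes, and the 9 include Mir1247 itself. The part of these measures in the members' differences was not tested.

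The stretch from Mir770 to Mir1247, called the domain in what follows, holds 66 miRNA genes of the annotation and leaves out Mir1906-1. The members' median level was 1234 CPM in replicate 1 and 796 CPM in replicate 2, against 355 and 382 CPM for the 13 genes of the Rtl1-antisense segment and 272 and 212 CPM for the 43 genes of the Mir379 to Mir410 segment. This order depends on the low genes of each group: 1 member, 3 Rtl1-antisense and 9 Mir379 to Mir410 genes were below 2 CPM in a library. Over the remaining genes the mean of the 2 libraries' medians was 1247 CPM for the members. It was 1360 CPM for the Rtl1-antisense segment and 481 CPM for the Mir379 to Mir410 segment. By this mean the members no longer stood above the Rtl1-antisense segment, but the libraries differed. In replicate 1 the members' median, 1467 CPM, still lay above that segment's, whose 2 middle genes were at 826 and 1230 CPM. In replicate 2 the members' median, 1027 CPM, lay below, with the segment's 2 middle genes at 1537 and 1845 CPM. The members supplied 9.15% of the domain's counts in replicate 1 and 16.9% in replicate 2, while the Rtl1-antisense segment supplied 49.7% and 29.95% and the Mir379 to Mir410 segment 40.9% and 52.9%. Mir127, the highest gene of the Rtl1-antisense segment, was at 71805 CPM in replicate 1 and 20504 CPM in replicate 2.

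In the order of levels over the domain, Mir770 was 3rd of 66 by mean, after Mir127 and Mir487b. Mir370 was 13th, Mir341 22nd, Mir673 27th, Mir493 45th and Mir1247 46th. Mir487b, the highest gene of the Mir379 to Mir410 segment, had 15302 CPM in replicate 1 and 17234 CPM in replicate 2, and Mir770 had 0.803 and 0.918 times its counts. The lowest genes with any count were Mir3544 of the Rtl1-antisense segment (1 count in replicate 1 and 0 in replicate 2) and Mir299b of the Mir379 to Mir410 segment (0 and 3). Past 2-fold between the libraries were 3 of the 10 Rtl1-antisense genes and 12 of the 35 Mir379 to Mir410 genes that had enough counts, again below the 50.4% over all genes.

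**Figure D4:**
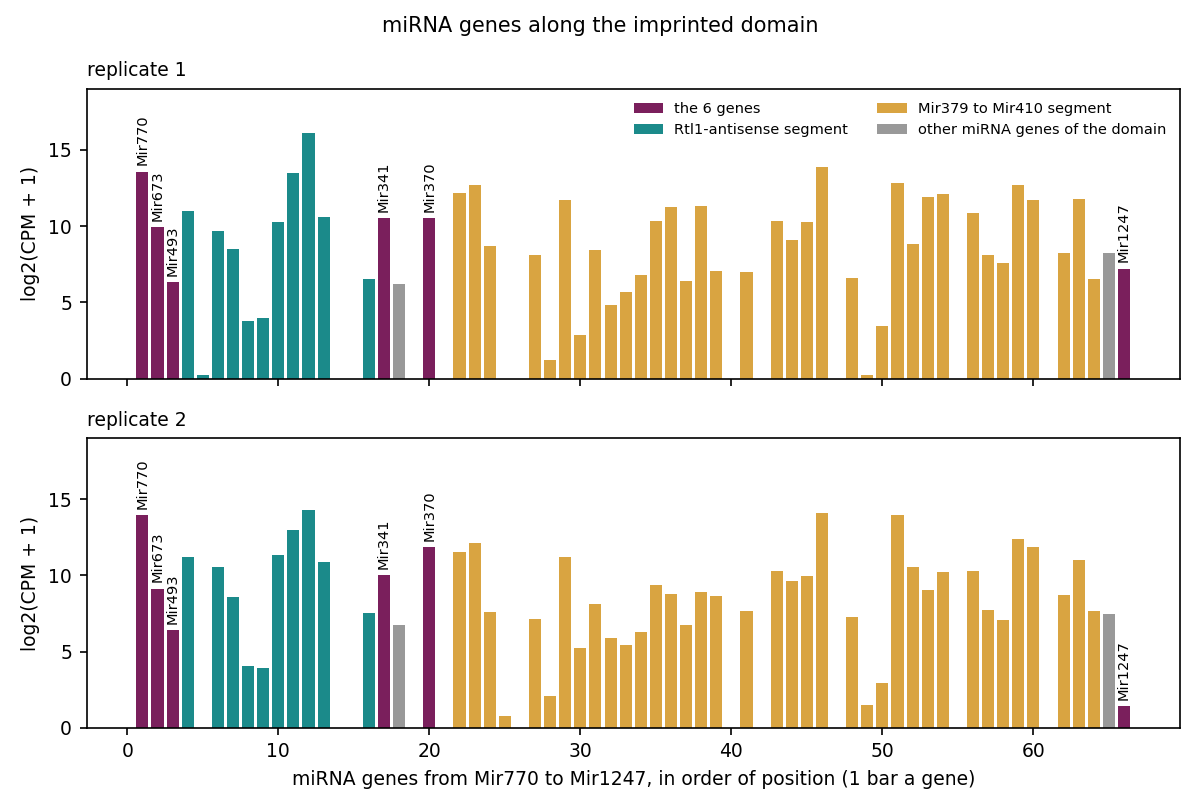
log2(CPM + 1) of the 66 miRNA genes from Mir770 to Mir1247 in order of position, 1 bar a gene, in replicate 1 (top) and replicate 2 (bottom), coloured by segment, with the 6 genes named; a gap is a gene at 0 counts. Mir770 opens this stretch as its 3rd highest gene by mean, and Mir1247 closes it, high in the top panel and low in the bottom one.

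The genes nearest to each member in log2(CPM + 1) over both libraries, among 428 others at 2 CPM or more in each, were mostly from other chromosomes. Mir770 was nearest to Mir487b of its own domain (distance 0.34 on the log2 scale) and to Mir652 on the X chromosome (0.47). Mir341 was nearest to Mir381 of its own domain (0.23) and to Mir185 on chromosome 16 (0.30). Mir673 was nearest to Mir455 (0.081) and Mir425 (0.17), Mir493 to Mir16-2 (0.11) and Mir27a (0.17), and Mir370 to Mir760 (0.24) and Mir15a (0.34). Mir1247, at 1.64 CPM in replicate 2, is below the limit set for these candidates, so genes as low there were left out. Its closest candidate was Mir24-1, at 47.6 CPM in replicate 1 and 7.03 CPM in replicate 2 (2.28), followed by Mir7044 (2.38). With such genes left out, these distances do not show whether Mir1247 had a near neighbour. With 2 libraries, such a distance compares 2 levels and no profile.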

How the data were processed

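The authors deposited 1 table of whole-number read counts per miRNA gene for each library, without a header line. Per the text deposited with the tables, reads were placed on mm10 and counted over GENCODE M21; aligner, trimming and counting options: not given in the sources used here. Of the 3 value columns, the second holds nearly all gene reads and was read as the counts on the gene's strand, the first as counts without strand and the third as the opposite strand. The 4 rows that name no gene, which hold 64.6% of the reads of replicate 1 and 68.8% of those of replicate 2, were left out of library sizes. The reads carry no stated molecular identifiers, so PCR copies are not independent.

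CPM, exact Poisson and Clopper-Pearson intervals (95%) and ratios were computed in Python 3.11.15 with scipy 1.17.1. Ratio intervals are conditional on the summed count, except the normal-approximation interval of the quotient of Mir370 and Mir341. No test was run, since there is 1 group of 2 libraries. The interval code was tested on simulated data. Scalings came from edgeR 4.0.16 (TMM) and DESeq2 1.42.0, and folding from RNAfold 2.7.2 at 37 °C. The named genes are the members, the 2 nearest genes of each, the ends of the other segments and miRNA neighbours within 1000 bases; Mir6985 and Mir1193 (shared seeds), Mir337 (position) and Mir1906-1 with its copy Mir1906-2 were added outside that rule. The members and lists were chosen with earlier results of these data known.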

Additional observations from a re-analysis of the deposited data

How the results depend on the processing

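Of 70 recomputed values, 44 were labelled unchanged and 26 moved. Levels were judged by the replicate SD and ratios by the counting interval. Counts of members past 2-fold were called unchanged within a factor of 1.5, although the members that passed changed with scaling. The ratios of Mir370 and Mir1247, at least 2-fold with library totals, kept their direction, which a log2 shift of 0.36 with TMM could not reverse. The ratio of Mir493 was 0.938 with totals and 1.20 with TMM. Per 1000000 mapped reads, mean levels were 5609 (Mir770), 320 (Mir673), 33.4 (Mir493), 508 (Mir341) and 1006 (Mir370) and their sum with Mir1247 7509, because this denominator is larger. Ratios of replicate 1 over replicate 2 were then 0.881 (Mir770), 2.01 (Mir673), 1.62 (Mir341) and 0.453 (Mir370). With TMM they were 0.997, 2.27, 1.84 and 0.512 for these 4 genes and 1.20 for Mir493, and with DESeq2 factors 0.998, 2.28, 1.84, 0.513 and 1.20. With counts made without strand, Mir493 was at 89.4 CPM, the Mir770 ratio was 0.791, and the mean of the 2 libraries' medians was 16.4 CPM for the Rtl1-antisense segment and 178 CPM for the Mir379 to Mir410 segment, since reads over overlapping hairpins drop out of that column. Over genes of at least 2 CPM in each library these were 1360 and 481 CPM, against 1247 CPM for the members. Over all genes they were 368 and 242 CPM, against 1015 CPM. The order of the members and the Rtl1-antisense segment thus turned in this mean of medians, but not in replicate 1 alone. The count of members past 2-fold was 3 of 6 per mapped read or at 1.5-fold and 2 of 6 otherwise.

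The members' summed level was 21174 CPM without replicate 1 and 16460 CPM without replicate 2; with 2 libraries either one always lies within 1 SD of their mean, so leaving one out is no check of stability. No paired analysis was possible because the series has a single group. The 7 counts of Mir1247 in replicate 2 limit its ratio to an interval of 43.5 to 225.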
